A study of Mus musculus with 24 samples.

Results

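The mammalian circadian clock was followed through its core genes, Arntl, Clock, Per1, Per2, Per3, Cry1, Cry2, Nr1d1 and Nr1d2, and its output gene Dbp, in MIN6 cells, an insulin-secreting mouse beta cell line derived from an insulinoma. These 10 genes, of 24421 in the count table, were chosen by symbol from the table, with values of the same libraries already known. Their levels and changes are therefore descriptions without a test. All 10 passed the filter on low counts, which left 13761 genes for testing.

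The RNA came from MIN6 cells transfected with a plasmid for either EIF2A fused to GFP or GFP alone, the control. EIF2A is an initiation factor that can deliver initiator tRNA and is a different protein from the alpha subunit of eIF2. Within each construct, vehicle (DMSO, called 0 h) was compared with 1 µM thapsigargin for 1 h or 3 h, in 4 libraries per group and 24 in all. Thapsigargin blocks the pump that refills the endoplasmic reticulum with calcium, so cytosolic calcium goes up and the reticulum comes under stress. All 6 groups, EIF2A at 0, 1 and 3 h and GFP at 0, 1 and 3 h, were kept in the same glucose-rich medium. The labels give neither separate cultures for the replicates nor vehicle samples collected at 1 h or 3 h. P-values thus measure the spread between these libraries, which may be technical, and thapsigargin cannot be told apart from the hours and handling that went with it, time of day included. In bulk RNA, fewer cells expressing a gene and less RNA per cell cannot be told apart.

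The clock is a loop of transcription and repression. BMAL1, encoded by Arntl, pairs with CLOCK and binds E-boxes to switch on the Per, Cry, Nr1d and Dbp genes. PER and CRY proteins return to the nucleus and inhibit that pair, while REV-ERB alpha and beta, encoded by Nr1d1 and Nr1d2, repress Arntl at ROR response elements. Beta cells keep such a clock, which in mice is needed for normal insulin secretion. Per1 and Per2 are also immediate targets of calcium and cAMP signals through CREB, which is one way in which clocks are reset.

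Total counts per library ran from 10.5 to 22.1 M in EIF2A cells and from 16.7 to 22.2 M in GFP cells. Levels are given as CPM, counts scaled by TMM to a common library size, and 1 CPM stood for 10.5 to 22.2 reads. The beta cell markers were abundant in every library, with Ins2 between 18397 and 66800 CPM. The 8 beta cell markers together summed to 52442 to 61243 CPM at 3 h against 83345 to 108806 CPM at 0 h in EIF2A cells, and to 36891 to 61947 CPM at 3 h against 72325 to 105368 CPM at 0 h in GFP cells; the part of this in the clock gene results was not tested. Among markers of other cells, Gcg lay between 138 and 921 CPM, Prss1 was at 0, and none of the other 12 exceeded 6.15 CPM. The stress genes Atf3, Ddit3, Atf4 and Trib3 rose at 3 h in both constructs, with log2 fold changes from 0.65 ± 0.10 (Atf4, adjusted p = 3.66e-05) to 3.52 ± 0.35 (Atf3, adjusted p = 1.74e-07) in EIF2A cells and from 0.81 ± 0.10 (Atf4, adjusted p = 3.71e-06) to 3.32 ± 0.35 (Atf3, adjusted p = 3.78e-07) in GFP cells.

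Eif2a, the gene on the plasmid, went against the labels in replicate 1. Libraries labelled EIF2A had 80.3, 141, 142 and 134 CPM in replicates 1 to 4 at 0 h, and libraries labelled GFP had 269, 79.0, 77.8 and 78.7 CPM. The same order held at 1 h and 3 h. Groups were kept as labelled, "EIF2A cells" and "GFP cells" mean libraries so labelled, and comparisons of the constructs are given with and without replicate 1. Responses to thapsigargin compare libraries with the same construct label, and replicate 1 widens their spread.

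Nr1d1, the REV-ERB alpha repressor, was the member with the largest fold at 3 h in both constructs. In EIF2A cells it had 11.2, 6.96, 7.64 and 10.1 CPM at 0 h, 12.2, 11.8, 12.5 and 11.5 CPM at 1 h, and 34.5, 43.0, 43.2 and 49.7 CPM at 3 h. In GFP cells it had 12.6, 12.3, 12.6 and 13.002 CPM at 0 h, 17.1, 19.5, 18.04 and 18.9 CPM at 1 h, and 56.3, 49.4, 53.3 and 50.3 CPM at 3 h. Every library at 3 h stood above every library at 1 h, and every library at 1 h above every library at 0 h, within each construct. The fold at 3 h over 0 h was 4.73 in EIF2A cells and 4.14 in GFP cells, with log2 fold changes of 2.24 ± 0.13 and 2.05 ± 0.12 (SE). At 1 h the log2 fold changes were 0.41 ± 0.12 in EIF2A cells and 0.54 ± 0.12 in GFP cells. Nr1d1 lies on chromosome 11 at 98767932 to 98775333 (GRCm38, minus strand). Its exons share 263 bases, 8.55% of its exonic length, with Thra, a thyroid hormone receptor gene on the other strand, and whether counting used strand is not given in the sources used here. Thra averaged 14.1 ± 1.55 CPM at 3 h against 22.6 ± 2.14 CPM at 0 h in EIF2A cells, and 15.9 ± 3.89 CPM at 3 h against 24.9 ± 4.18 CPM at 0 h in GFP cells (SD, n = 4 each), the opposite direction to Nr1d1.

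Nr1d2, the REV-ERB beta gene (chromosome 14, 18204054 to 18239127, minus strand), differed less between times than its paralog. In EIF2A cells it had 93.4, 49.6, 45.7 and 44.2 CPM at 0 h, 97.2, 47.1, 44.0 and 35.7 CPM at 1 h, and 108, 74.3, 70.0 and 51.5 CPM at 3 h. GFP cells had 115, 76.4, 70.0 and 72.9 CPM at 0 h, 107, 73.0, 67.8 and 68.5 CPM at 1 h, and 134, 103, 88.8 and 84.3 CPM at 3 h. Replicate 1 was the highest library in each of the 6 groups, and within a construct the groups overlapped. Each 3 h library nevertheless stood above the 0 h library of its own replicate number, by 0.21 to 0.61 log2 units in EIF2A cells and 0.21 to 0.43 in GFP cells. The log2 fold change at 3 h was 0.38 ± 0.30 in EIF2A cells and 0.29 ± 0.30 in GFP cells.

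Arntl, the gene of the activator BMAL1 that REV-ERB proteins repress, was higher at 3 h together with Nr1d1. EIF2A cells had 14.4, 9.76, 7.83 and 9.08 CPM of Arntl at 0 h, 19.8, 12.3, 12.3 and 9.20 CPM at 1 h, and 35.2, 28.2, 29.2 and 20.9 CPM at 3 h. GFP cells had 14.9, 13.7, 14.0 and 12.6 CPM at 0 h, 18.4, 19.8, 20.3 and 18.2 CPM at 1 h, and 32.9, 47.0, 46.8 and 42.4 CPM at 3 h. The 3 h libraries stood apart from the 0 h libraries in both constructs, and in GFP cells the 1 h libraries did too. The log2 fold change at 3 h was 1.46 ± 0.21 in EIF2A cells and 1.62 ± 0.20 in GFP cells, or 2.74-fold and 3.07-fold. Arntl lies on chromosome 7 at 113207465 to 113314126 (plus strand).

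The Arntl promoter is shown because REV-ERB and ROR proteins act on Arntl through ROR response elements. Those elements may lie outside the stretch shown. It is given from -250 to -31 relative to the more upstream of its RefSeq start sites (GRCm38.p6, chr7:113207215-113207434, plus strand). Capitals mark matches to TNGGTCA, a loose pattern in which N is any base, so a match need not be a ROR response element.
Arntl: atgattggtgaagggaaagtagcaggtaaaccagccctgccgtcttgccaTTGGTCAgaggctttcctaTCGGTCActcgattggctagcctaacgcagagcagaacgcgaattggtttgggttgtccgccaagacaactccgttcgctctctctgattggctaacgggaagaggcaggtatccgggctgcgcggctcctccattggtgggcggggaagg
The pattern occurs at -200 as TTGGTCA and at -181 as TCGGTCA. The window of the more downstream RefSeq start of Arntl holds the same pair. It also holds TAGGTCA, at 31 relative to that start, outside the stretch shown. The pattern was searched on both strands, and 10.96% of the 32851 RefSeq promoter windows hold it at least once. The promoter windows run from 250 bases before to 50 after a start, and 9 of the 10 members have at least one, 13 in all. Among the other members, the windows of Cry2 (at -133) and Per3 (at -118) each hold a match to the pattern. A match is a match of letters and not a measured site.

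Clock, the gene of BMAL1's partner, was the one member whose 3 h libraries all lay below the 0 h libraries in both constructs. EIF2A cells had 127, 107, 103 and 108 CPM at 0 h, 113, 72.8, 77.3 and 68.5 CPM at 1 h, and 97.7, 76.6, 79.4 and 55.4 CPM at 3 h. GFP cells had 116, 130.0, 128 and 129.8 CPM at 0 h, 94.2, 94.0, 93.1 and 87.2 CPM at 1 h, and 77.1, 86.0, 85.3 and 80.5 CPM at 3 h. Every 3 h library was below every 0 h library in both constructs, and in GFP cells every 1 h library was as well. The log2 fold change was -0.42 ± 0.14 at 1 h and -0.53 ± 0.14 at 3 h in EIF2A cells, and -0.45 ± 0.14 at 1 h and -0.61 ± 0.14 at 3 h in GFP cells. Clock (chromosome 5, 76209868 to 76304792, minus strand) and Arntl thus differed from 0 h in opposite directions although their proteins work as a pair.

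**Figure D1:**
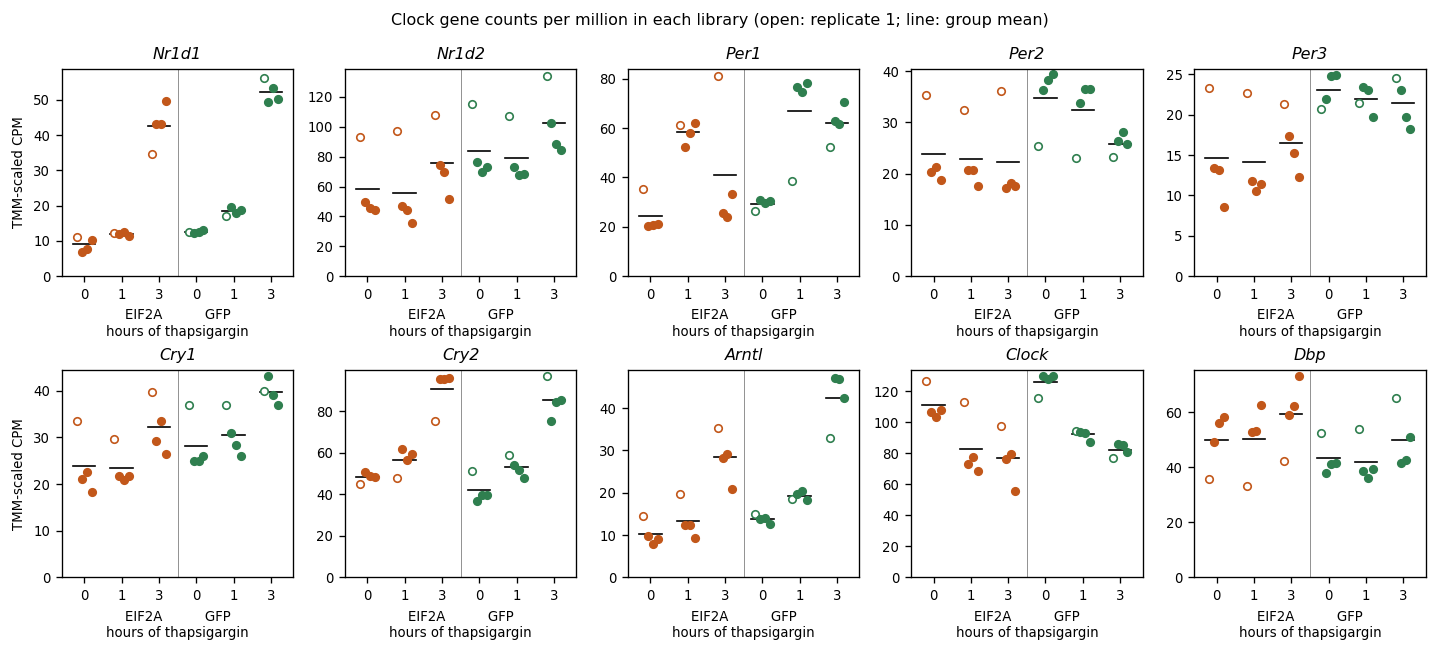
TMM-scaled CPM (vertical axis, linear from 0) of the 10 clock genes in each library, by hours of thapsigargin within EIF2A cells (left of each panel) and GFP cells (right). Open points are replicate 1, filled points are replicates 2 to 4, and lines are means of 4 libraries; Nr1d1, Arntl and Cry2 stand higher and Clock lower at 3 h than at 0 h in both constructs.

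Per1, the repressor gene that calcium and cAMP signals induce, had the largest difference of the members at 1 h. In EIF2A cells it had 35.5, 20.2, 20.8 and 21.04 CPM at 0 h, 61.5, 52.2, 57.9 and 62.2 CPM at 1 h, and 81.0, 25.8, 23.9 and 33.2 CPM at 3 h. In GFP cells it had 26.6, 30.9, 29.7 and 30.5 CPM at 0 h, 38.8, 76.6, 74.5 and 78.2 CPM at 1 h, and 52.5, 63.1, 61.6 and 70.6 CPM at 3 h. At 1 h every library stood above every 0 h library in both constructs, with log2 fold changes of 1.25 ± 0.30 in EIF2A cells and 1.19 ± 0.30 in GFP cells. At 3 h the constructs were less alike. GFP cells stayed 2.11-fold above 0 h, whereas in EIF2A cells replicates 2 to 4 were at 0.20 to 0.66 log2 units above their own 0 h libraries and replicate 1 stood 1.19 above its own. In a fit without replicate 1, the 3 h log2 fold change was 0.42 ± 0.10 in EIF2A cells and 1.10 ± 0.09 in GFP cells, a difference of -0.68 ± 0.14. With all 24 libraries that difference was -0.33 ± 0.42.

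Genes known to respond to calcium or cAMP as Per1 does were followed beside it. They were listed with earlier results of these data known, so their values and p-values are descriptions. Nr4a1, an orphan nuclear receptor gene, had 138, 26.5, 21.2 and 21.8 CPM at 0 h, 602, 180.3, 179 and 197 CPM at 1 h, and 556, 19.8, 23.99 and 26.4 CPM at 3 h in EIF2A cells. GFP cells had 67.2, 82.9, 85.6 and 84.4 CPM at 0 h, 180.0, 508, 512 and 482 CPM at 1 h, and 157, 267, 272 and 295 CPM at 3 h. In replicates 2 to 4 of EIF2A cells Nr4a1 was thus near its 0 h level at 3 h (log2 fold change 0.00 ± 0.10 without replicate 1), while all 4 GFP libraries at 3 h were above their own 0 h libraries. Sik1, a CREB-induced kinase gene, averaged 4.78 ± 0.840 CPM at 3 h against 9.70 ± 1.05 CPM at 0 h in EIF2A replicates 2 to 4, and 59.1 ± 4.01 CPM at 3 h against 26.5 ± 1.23 CPM at 0 h in GFP replicates 2 to 4 (SD, n = 3 each). Crem, the gene of a cAMP-responsive modulator and of the repressor ICER, averaged 26.1 ± 2.39 CPM at 3 h against 38.7 ± 0.668 CPM at 0 h in these EIF2A libraries, and 56.9 ± 2.02 CPM at 3 h against 38.9 ± 2.33 CPM at 0 h in these GFP libraries. Without replicate 1, the 3 h responses of the constructs differed by -1.72 ± 0.12 for Nr4a1 (adjusted p = 9.17e-08), -2.19 ± 0.15 for Sik1 (adjusted p = 9.17e-08) and -1.12 ± 0.11 for Crem (adjusted p = 4.54e-06) in edgeR's quasi-likelihood test. Of the 6 genes listed with shared inducers, Fos, Egr1, Junb, Nr4a1, Crem and Sik1, all but Junb differed so, each with the smaller response in EIF2A cells, where 4.12% of all genes tested were called. With all 24 libraries edgeR and DESeq2 called 0 of the 6, with 0 at an unadjusted p under 0.05 in either. In replicate 1 the 3 h level of Nr4a1, Sik1 and Crem in the library labelled EIF2A was above its 0 h level, as in the library labelled GFP. Egr1 and Fos did not rise with Per1 at 1 h in EIF2A replicates 2 to 4. They differed from their own 0 h libraries by -0.49, -0.51 and -0.26 (Egr1) and -0.25, -0.06 and 0.18 (Fos) log2 units. In GFP cells the range was 0.57 to 0.68 for Egr1 and 0.78 to 1.35 for Fos. Junb stood above its own 0 h libraries at 3 h, by 1.14 to 1.70 in EIF2A cells and 1.18 to 1.63 in GFP cells.

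**Figure D2:**
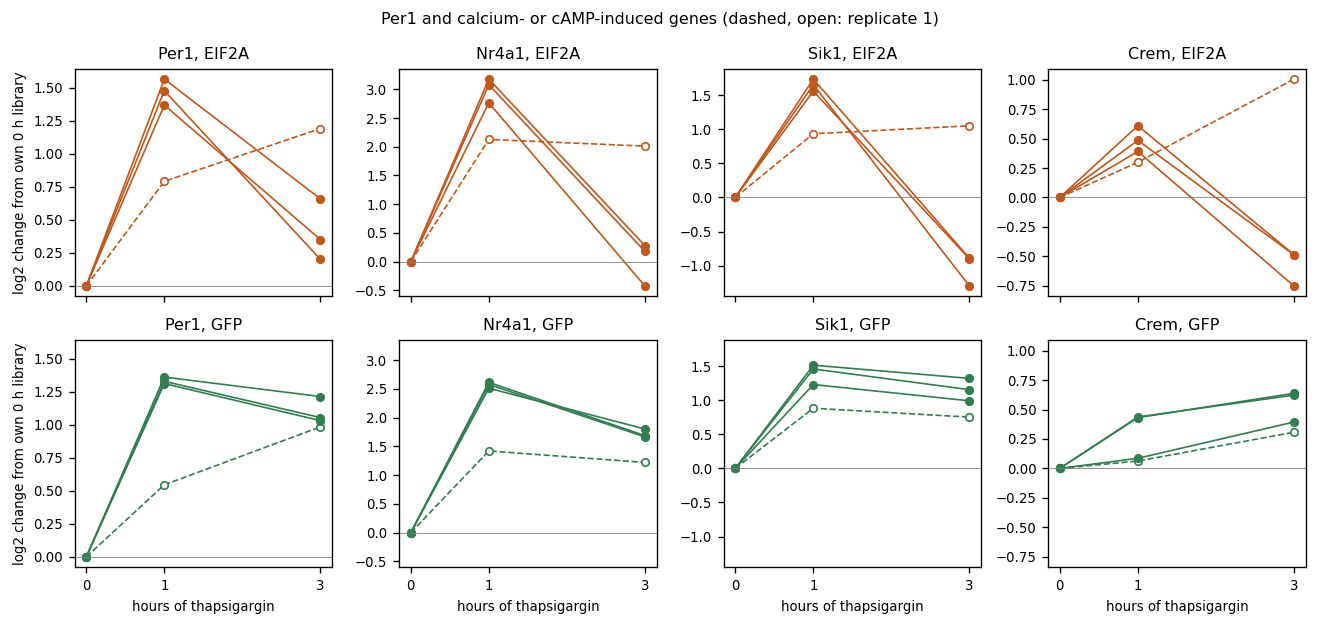
Log2 change in CPM from the 0 h library of the same construct and replicate number (vertical axis) against hours of thapsigargin, for Per1 and 3 genes induced by calcium or cAMP, in EIF2A cells (top) and GFP cells (bottom). Each line is 1 replicate number, dashed with open points for replicate 1; Per1 in EIF2A replicates 2 to 4 lies between 0.20 and 0.66 at 3 h, while the GFP replicates lie between 0.98 and 1.21.

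Per1 lies on chromosome 11 at 69095217 to 69109960 (plus strand), and RefSeq gives it a pair of start sites. Both promoters are shown from -250 to -31 (GRCm38.p6, plus strand), since one holds an E-box, the clock's own element, and the other the core of a cAMP response element (CRE core). Capitals mark the E-box CACGTG in the upstream window (chr11:69098699-69098918) and the CRE core TGACGT in the downstream window (chr11:69099902-69100121).
Per1 upstream: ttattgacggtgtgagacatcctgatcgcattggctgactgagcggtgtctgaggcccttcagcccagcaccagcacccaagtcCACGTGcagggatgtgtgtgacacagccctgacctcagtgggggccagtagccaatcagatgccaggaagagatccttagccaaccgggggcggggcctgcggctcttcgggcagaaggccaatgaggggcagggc
Per1 downstream: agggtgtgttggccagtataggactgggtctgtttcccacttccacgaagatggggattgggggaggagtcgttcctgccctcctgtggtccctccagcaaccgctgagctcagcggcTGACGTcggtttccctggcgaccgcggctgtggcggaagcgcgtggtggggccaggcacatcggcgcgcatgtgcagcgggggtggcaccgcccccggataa
The E-box lies at -166 and the CRE core at -132. Of all promoter windows, 7.15% hold an E-box, 7.51% hold the CRE core on either strand, and 1.79% hold the full site TGACGTCA, which contains the CRE core and is in neither Per1 window. The counts are per gene and do not say which start was used.

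Per2 and Per3, the other PERIOD repressor genes, did not follow Per1. In EIF2A cells Per2 had 35.4, 20.4, 21.2 and 18.7 CPM at 0 h, 32.4, 20.6, 20.6 and 17.5 CPM at 1 h, and 36.0, 17.2, 18.3 and 17.6 CPM at 3 h. In GFP cells it had 25.3, 36.2, 38.2 and 39.3 CPM at 0 h, 23.0, 33.8, 36.5 and 36.4 CPM at 1 h, and 23.3, 26.3, 28.1 and 25.8 CPM at 3 h. No Per2 group at 1 h was clear of its 0 h group, and in GFP cells each 3 h library was below its own 0 h library, by 0.12 log2 units in replicate 1 and up to 0.61 in the others. The log2 fold change of Per2 at 3 h was -0.11 ± 0.25 in EIF2A cells and -0.43 ± 0.25 in GFP cells. Per2 lies on chromosome 1 at 91415982 to 91459324 (minus strand).

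Per3 (chromosome 4, 151003652 to 151044665, minus strand) had 23.3, 13.3, 13.2 and 8.56 CPM at 0 h, 22.6, 11.7, 10.5 and 11.5 CPM at 1 h, and 21.3, 17.4, 15.3 and 12.2 CPM at 3 h in EIF2A cells. GFP cells had 20.7, 21.9, 24.8 and 24.9 CPM at 0 h, 21.4, 23.5, 23.0 and 19.7 CPM at 1 h, and 24.6, 23.1, 19.7 and 18.3 CPM at 3 h. The groups of each construct overlapped at every time, and the log2 fold change at 3 h was 0.17 ± 0.25 in EIF2A cells and -0.11 ± 0.25 in GFP cells.

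Cry2, the cryptochrome repressor gene on chromosome 2 (92403646 to 92434043, minus strand), was higher at 3 h in every library. EIF2A cells had 44.9, 50.8, 49.0 and 48.5 CPM at 0 h, 48.0, 62.0, 56.7 and 59.2 CPM at 1 h, and 75.3, 95.5, 95.3 and 95.9 CPM at 3 h. GFP cells had 51.3, 36.9, 39.9 and 39.4 CPM at 0 h, 59.1, 53.9, 51.8 and 47.7 CPM at 1 h, and 96.9, 75.5, 84.4 and 85.2 CPM at 3 h. The 3 h libraries stood clear of the 0 h libraries in both constructs, at 1.87-fold in EIF2A cells and 2.04-fold in GFP cells, or 0.91 ± 0.11 and 1.03 ± 0.11 on the log2 scale. At 1 h each library was above the 0 h library of its own number, by 0.09 to 0.29 log2 units in EIF2A cells and 0.20 to 0.55 in GFP cells. An RNA on the other strand, D930015M05Rik, shares 295 exonic bases with Cry2 and stayed at or below 1.46 CPM.

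Cry1, the other cryptochrome gene (chromosome 10, 85131700 to 85185064, minus strand), followed Cry2 at 3 h with smaller differences. In EIF2A cells it had 33.5, 21.2, 22.5 and 18.4 CPM at 0 h, 29.8, 21.7, 20.9 and 21.7 CPM at 1 h, and 39.8, 29.3, 33.5 and 26.4 CPM at 3 h. Cry1 in GFP cells had 37.0, 24.9, 24.9 and 26.0 CPM at 0 h, 36.9, 30.9, 28.4 and 26.0 CPM at 1 h, and 40.0, 43.2, 39.0 and 36.9 CPM at 3 h. Replicate 1 at 0 h lay within the 3 h range in EIF2A cells and just inside it in GFP cells, while in replicates 2 to 4 every 3 h library was above every 0 h library. At 3 h its log2 fold change was 0.43 ± 0.18 in EIF2A cells and 0.50 ± 0.18 in GFP cells.

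Dbp, the output gene that BMAL1 and CLOCK drive through E-boxes, differed little between times. EIF2A cells had 35.9, 49.3, 55.9 and 58.4 CPM at 0 h, 33.2, 52.8, 53.0 and 62.5 CPM at 1 h, and 42.4, 59.0, 62.3 and 73.3 CPM at 3 h. GFP cells had 52.3, 37.8, 41.2 and 41.5 CPM at 0 h, 53.9, 38.7, 36.3 and 39.5 CPM at 1 h, and 65.2, 41.4, 42.5 and 51.2 CPM at 3 h. All groups of 1 construct overlapped, and each 3 h library was above its own 0 h library by 0.15 to 0.33 log2 units in EIF2A cells and by 0.05 to 0.32 in GFP cells. At 3 h its log2 fold change was 0.25 ± 0.20 in EIF2A cells and 0.21 ± 0.20 in GFP cells. Dbp (chromosome 7, 45705088 to 45710203, plus strand) shares 539 exonic bases, 18.01% of its exonic length, with Sphk2 on the other strand. Sphk2, a sphingosine kinase gene, averaged 76.2 ± 11.2 CPM at 3 h against 53.0 ± 7.18 CPM at 0 h in EIF2A cells, and 72.4 ± 11.4 CPM at 3 h against 50.3 ± 9.79 CPM at 0 h in GFP cells (SD, n = 4 each), the same direction as Dbp, and its part in the Dbp counts was not tested.

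**Figure D3:**
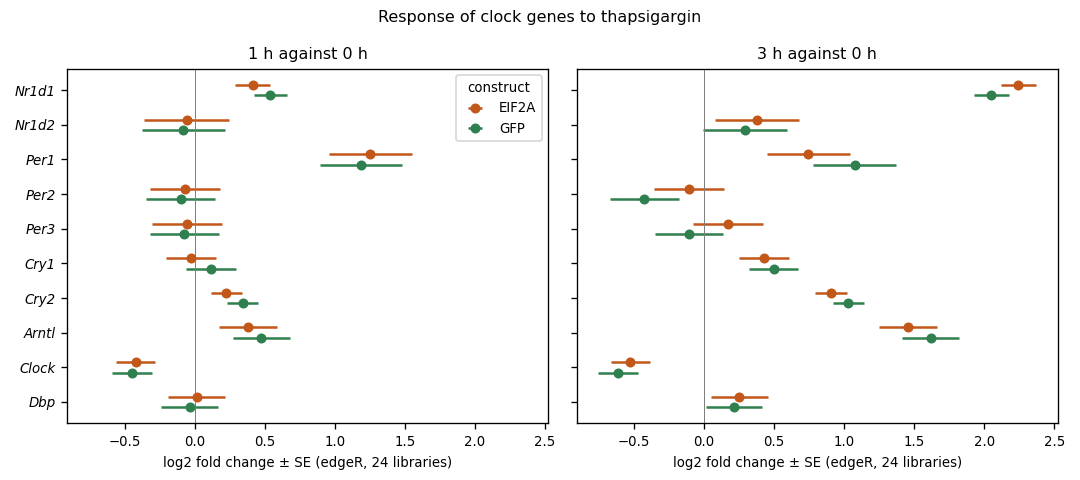
Log2 fold change of each clock gene (horizontal axis, with bars of 1 SE, from edgeR over 24 libraries) at 1 h and 3 h of thapsigargin against 0 h, EIF2A above GFP in each pair. Nr1d1 at 3 h lies at 2.24 in EIF2A cells and 2.05 in GFP cells, Arntl at 1.46 and 1.62, and Clock at -0.53 and -0.61.

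Counts past an adjusted p of 0.05 (edgeR's quasi-likelihood test, Benjamini-Hochberg over all genes) are given against the share of all genes tested, and nothing is read from them, since the choice of members knew these contrasts. At 1 h, Nr1d1 and Per1 were called higher in both constructs, where 6.55% of genes were called higher and 3.94% lower in EIF2A cells, and 5.78% higher and 2.39% lower in GFP cells. At 3 h, Nr1d1, Arntl and Cry2 were called higher and Clock lower in EIF2A cells, where 19.6% of genes were called higher and 16.6% lower. In GFP cells, Per1 and Cry1 joined those 3 and Clock was again lower, with 18.4% of genes called higher and 14.6% lower. Between 3 h and 1 h, Nr1d1, Arntl and Cry2 were called higher in both constructs, with 8.28% of genes higher and 6.62% lower in EIF2A cells and 5.49% higher and 4.28% lower in GFP cells. The median log2 fold change of the 10 members at 3 h was 0.40 in EIF2A cells and 0.39 in GFP cells, against -0.01 and -0.00 over all genes tested. Scaling by library totals turned the sign of 3 h against 0 h for Per2 in EIF2A cells and Per3 in GFP cells, neither of them called, and of no other member; it moved the share of calls that were higher at 3 h to 74.1% (54.2% with TMM) in EIF2A cells and to 71.4% (55.9% with TMM) in GFP cells, and between 3 h and 1 h to 88.2% (55.6%) and 83.1% (56.2%).

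With replicate 1 included, same-numbered libraries of 1 construct deviated together (correlations 0.510 to 0.933). Without replicate 1 the correlations were -0.0264 to 0.312, so a pairing of replicates 2 to 4 is not shown. A fit with the replicate number as a block was also made. It called 5, 8 and 7 of the 10 members in EIF2A cells at 1 h, at 3 h and between 3 h and 1 h, where 45.3%, 66.2% and 52.7% of all genes were called. In GFP cells it called 5, 9 and 8 members, where 44.6%, 67.1% and 49.7% of all genes were called. At 3 h against 0 h, Per1, Cry1, Nr1d2 and Dbp joined the higher members in EIF2A cells, and Nr1d2 and Dbp joined them in GFP cells with Per2 lower. Per3 was not called at either time in either construct. Counted over single libraries, those at 1 h and 0 h did not overlap for 2 members in EIF2A cells and 4 in GFP cells, where this held for 12.9% and 22.3% of all genes. At 3 h they did not overlap for 4 members in EIF2A cells and 5 in GFP cells, where this held for 27.9% and 39.4% of all genes.

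Levels were compared between genes as CPM per kilobase of exonic length. At 0 h in EIF2A cells the order was Dbp at 16.7 ± 3.37, Nr1d2 at 10.8 ± 4.36, Clock at 8.10 ± 0.772, Cry2 at 7.64 ± 0.388, Cry1 at 7.15 ± 1.98, Per1 at 4.33 ± 1.32, Per2 at 4.08 ± 1.32, Nr1d1 at 2.92 ± 0.655, Per3 at 1.52 ± 0.648 and Arntl at 1.37 ± 0.384 (SD, n = 4). Every pair of neighbours in that order overlapped in range. At 0 h in GFP cells the order was Nr1d2 at 15.5 ± 3.95, Dbp at 14.4 ± 2.11, Clock at 9.16 ± 0.496, Cry1 at 8.44 ± 1.75, Cry2 at 6.62 ± 1.02, Per2 at 5.94 ± 1.10, Per1 at 5.22 ± 0.347, Nr1d1 at 4.10 ± 0.0993, Per3 at 2.40 ± 0.216 and Arntl at 1.83 ± 0.127 (SD, n = 4). Neighbours from Nr1d2 to Dbp and from Clock through Per1 overlapped in range, and Per1, Nr1d1, Per3 and Arntl were clear of one another. By 3 h Nr1d1 stood second in GFP cells at 17.01 ± 1.02, behind Nr1d2 at 18.9 ± 4.14 and with an overlapping range, and rank 4 in EIF2A cells at 13.8 ± 2.01. Arntl, lowest in both constructs at 0 h, averaged 5.62 ± 0.878 in GFP cells at 3 h, clear of Per3 and overlapping Per2 at 4.41 ± 0.339. The exonic length used covers every annotated transcript, so these levels understate genes expressed from a short isoform.

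A wider list of 21 clock-related genes, also drawn up with results of these data known, was tested across all genes. Of these, 19 passed the low-count filter, and Npas2 and Fbxl21 did not. Nfil3, Ciart and Timeless were called higher at 3 h in both constructs and none was called lower. These are 3 of 19, a share not above that of all genes, of which 19.6% in EIF2A cells and 18.4% in GFP cells were called higher, so the list as a whole does not stand out. Nfil3, which encodes E4BP4, a repressor at the D-box sites that DBP activates, had 25.7, 35.7, 36.5 and 36.0 CPM at 0 h, 61.6, 93.0, 94.4 and 94.6 CPM at 1 h, and 142, 214, 223 and 255 CPM at 3 h in EIF2A cells. GFP cells had 40.3, 26.3, 26.6 and 27.8 CPM at 0 h, 75.6, 72.0, 75.3 and 71.1 CPM at 1 h, and 185, 130.0, 135 and 145 CPM at 3 h. Nfil3 rose stepwise and without overlap between times. Its log2 fold change at 3 h was 2.64 ± 0.19 in EIF2A cells (adjusted p = 3.48e-09) and 2.30 ± 0.18 in GFP cells (adjusted p = 1.34e-08), or 6.24-fold and 4.92-fold. At 1 h it was 1.36 ± 0.18 in EIF2A cells (adjusted p = 6.34e-05) and 1.28 ± 0.18 in GFP cells (adjusted p = 1.29e-04).

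Ciart, which encodes CHRONO, a repressor of BMAL1 and CLOCK, had 5.55, 6.81, 6.97 and 7.22 CPM at 0 h, 10.8, 11.3, 11.7 and 11.001 CPM at 1 h, and 52.6, 29.5, 30.1 and 34.6 CPM at 3 h in EIF2A cells. GFP cells had 7.23, 7.84, 9.69 and 8.22 CPM at 0 h, 8.24, 14.7, 14.9 and 13.2 CPM at 1 h, and 35.8, 42.8, 43.4 and 44.6 CPM at 3 h. All 3 h libraries stood above all earlier ones in both constructs. The log2 fold change was 2.47 ± 0.19 in EIF2A cells (adjusted p = 6.20e-09) and 2.34 ± 0.18 in GFP cells (adjusted p = 1.05e-08) at 3 h, and 0.76 ± 0.18 (adjusted p = 0.0106) and 0.63 ± 0.18 (adjusted p = 0.0333) at 1 h. Its promoter is shown because it holds 3 E-boxes, marked in capitals, at -116, -58 and -44, the most in any window of a member, Ciart or Nfil3 (RefSeq, GRCm38.p6, chr3:95882259-95882478, minus strand).
Ciart: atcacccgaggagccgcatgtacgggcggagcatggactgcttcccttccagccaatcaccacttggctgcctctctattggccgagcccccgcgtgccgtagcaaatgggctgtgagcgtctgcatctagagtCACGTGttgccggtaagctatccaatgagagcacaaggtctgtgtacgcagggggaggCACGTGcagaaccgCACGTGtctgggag
The windows of Cry1 (at -60) and the upstream Per1 start hold 1 E-box each. No E-box lies in the windows of Nr1d1, Nr1d2, Dbp, Clock, Arntl, Cry2, Per3 or Nfil3, and Per2 has no window. An absence says only that these letters are not within the window. The D-box TTANGTAA, at -205 and -158 in the Per3 window, occurs in 2.32% of all windows. The ATF4 composite element core TGATGNAA, found in 3.97% of all windows, was in none of these.

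Timeless, a replication fork gene with a role in the clock, rose by a log2 fold change of 0.67 ± 0.08 in EIF2A cells (adjusted p = 1.28e-06) and 0.56 ± 0.08 in GFP cells (adjusted p = 1.12e-05) at 3 h. It averaged 127 ± 12.5 CPM at 3 h against 80.2 ± 3.28 CPM at 0 h in EIF2A cells, and 133 ± 14.7 CPM at 3 h against 90.2 ± 2.16 CPM at 0 h in GFP cells (SD, n = 4 each). Bhlhe41, the DEC2 repressor gene, was called between 3 h and 1 h in EIF2A cells at 0.64 ± 0.16 (adjusted p = 0.00896), where it averaged 85.2 ± 11.5 CPM at 3 h and 54.5 ± 5.27 CPM at 1 h. In GFP cells the same change was 0.17 ± 0.16 (adjusted p = 0.586). The other 15 tested genes of the list, among them Tef, Hlf, the Ror genes, the casein kinase genes Csnk1d and Csnk1e, and the ubiquitin ligase gene Btrc, were called in no contrast.

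With the replicate block, 7, 10 and 12 of the 19 were called in EIF2A cells at 1 h, at 3 h and between 3 h and 1 h, and 7, 10 and 10 in GFP cells. Of all genes, that fit called 45.3%, 66.2% and 52.7% in EIF2A cells and 44.6%, 67.1% and 49.7% in GFP cells, so the list's shares were below the background at 1 h and 3 h. Tef, a paralog of Dbp that activates the same sites, was then lower at 3 h by a log2 fold change of -0.41 ± 0.06 in EIF2A cells (adjusted p = 1.53e-06) and -0.46 ± 0.06 in GFP cells (adjusted p = 4.94e-08). Csnk1e, a kinase gene whose product marks PER proteins for degradation, was lower by -0.33 ± 0.05 (adjusted p = 2.84e-06) in EIF2A cells and -0.25 ± 0.05 (adjusted p = 9.45e-05) in GFP cells in that fit. Over the whole list the median log2 fold change at 3 h was 0.19 in EIF2A cells and 0.07 in GFP cells.

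**Figure D4:**
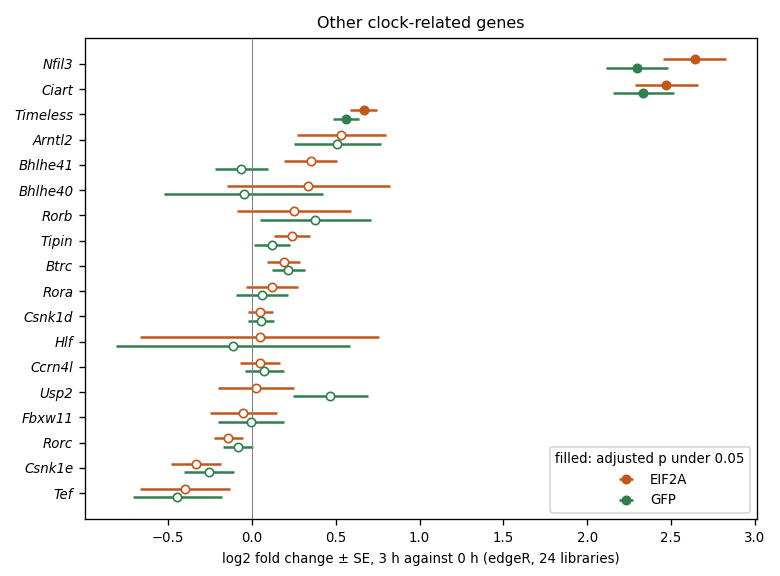
Log2 fold change at 3 h against 0 h (horizontal axis, with bars of 1 SE, from edgeR over 24 libraries) of other clock-related genes tested, EIF2A above GFP in each pair. Filled points have an adjusted p under 0.05, which holds for Nfil3, Ciart and Timeless in both constructs.

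The constructs were compared at each time. With all 24 libraries, no member was called at 0 h or 3 h and Nr1d1 was called lower in libraries labelled EIF2A at 1 h, where 0.0218%, 1.02% and 0% of all genes were called at 0, 1 and 3 h. At 1 h Nr1d1 was at 11.98 ± 0.435 CPM in EIF2A cells and 18.4 ± 1.05 CPM in GFP cells (SD, n = 4 each), with no overlap, and replicate 1 took the same side as the others. No member's 1 h or 3 h response was called different between the constructs, and 0% of all genes were, in either. Of the 10 members, 3 at 0 h, 4 at 1 h, 2 at 3 h and 0 for either response had an unadjusted p under 0.05, as had 3006, 3901 and 2901 of all 13761 genes at 0, 1 and 3 h, 72 for the 1 h response and 146 for the 3 h response. DESeq2 called 1, 1 and 0 members at those times and 0 for the responses, and 471, 1681 and 176 of all genes at those times and 0 for the responses. In the wider list none was called at any time or for either response by edgeR, while 5, 6 and 3 of the 19 had an unadjusted p under 0.05 at 0, 1 and 3 h and none for the responses; DESeq2 called 0, 3 and 0 at those times and none for the responses. Csnk1d and Tipin, its most abundant members, differed by -0.14 ± 0.08 (adjusted p = 0.287) and -0.01 ± 0.11 (adjusted p = 0.971) at 0 h.

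In replicates 2 to 4 alone, all 10 members were called different between the constructs at each time, with the same sign in each of the 3 replicate numbers. At 0, 1 and 3 h, 64.8%, 70.0% and 67.6% of all 13731 genes tested there were called. Cry2 and Dbp were higher in libraries labelled EIF2A and the other 8 were lower. Per3 had the largest difference at 0 h, at 11.7 ± 2.71 CPM in EIF2A libraries and 23.9 ± 1.68 CPM in GFP libraries (SD, n = 3 each), a log2 ratio of -1.01 ± 0.14. Per2 was at 20.1 ± 1.29 CPM in EIF2A libraries and 37.9 ± 1.57 CPM in GFP libraries, a log2 ratio of -0.91 ± 0.07. Dbp was at 54.5 ± 4.71 CPM in EIF2A libraries and 40.2 ± 2.06 CPM in GFP libraries, a log2 ratio of 0.44 ± 0.10. At 3 h the largest was Per1, at 27.7 ± 4.91 CPM in EIF2A libraries and 65.1 ± 4.81 CPM in GFP libraries, a log2 ratio of -1.24 ± 0.09.

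Replicate 1 had the opposite sign for 6 of the 10 members at 0 h, 7 at 1 h and 6 at 3 h. Dbp was 35.9 CPM in the library labelled EIF2A and 52.3 CPM in that labelled GFP at 0 h, the reverse of the other replicates, and Per2 was 35.4 and 25.3 CPM in the same libraries, reversed as well. Nr1d1, Nr1d2 and Cry1 were lower in the EIF2A library of every replicate number at every time, replicate 1 included. Whether labels were exchanged in replicate 1 was not tested. Without replicate 1, the responses to thapsigargin of 0.816% of all genes at 1 h and 4.12% at 3 h differed between the constructs, and Per1 at 3 h was the one member among them.

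Of the wider list, 13, 14 and 14 of 19 were called between the constructs at 0, 1 and 3 h in replicates 2 to 4. These shares are near those of all genes, 64.8%, 70.0% and 67.6%, so the genes below are given for their values and not as a property of the list. Hlf, the third gene of the Dbp and Tef family, averaged 6.88 ± 0.522 CPM in EIF2A libraries and 33.9 ± 0.917 CPM in GFP libraries at 0 h (SD, n = 3 each), a log2 ratio of -2.29 ± 0.10 (adjusted p = 1.82e-13, edgeR). Replicate 1 was turned round, with 35.4 CPM of Hlf in the library labelled EIF2A and 8.33 CPM in that labelled GFP. Bhlhe40, the DEC1 repressor gene, was at 13.7 ± 1.23 CPM in EIF2A libraries and 43.9 ± 1.74 CPM in GFP libraries at 0 h, a log2 ratio of -1.68 ± 0.08 (adjusted p = 2.16e-12). Tef had a log2 ratio of -0.70 ± 0.06 (adjusted p = 2.71e-09) and Csnk1e one of 0.52 ± 0.06 (adjusted p = 2.28e-07) at 0 h. The 3 h response was larger in EIF2A libraries for Nfil3, by 0.33 ± 0.09 on the log2 scale (adjusted p = 0.0411), and for Bhlhe41, by 0.51 ± 0.08 (adjusted p = 5.21e-04). At 1 h the response of Bhlhe40 was smaller in EIF2A libraries, with a difference of -0.57 ± 0.12 (adjusted p = 0.0335).

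**Figure D5:**
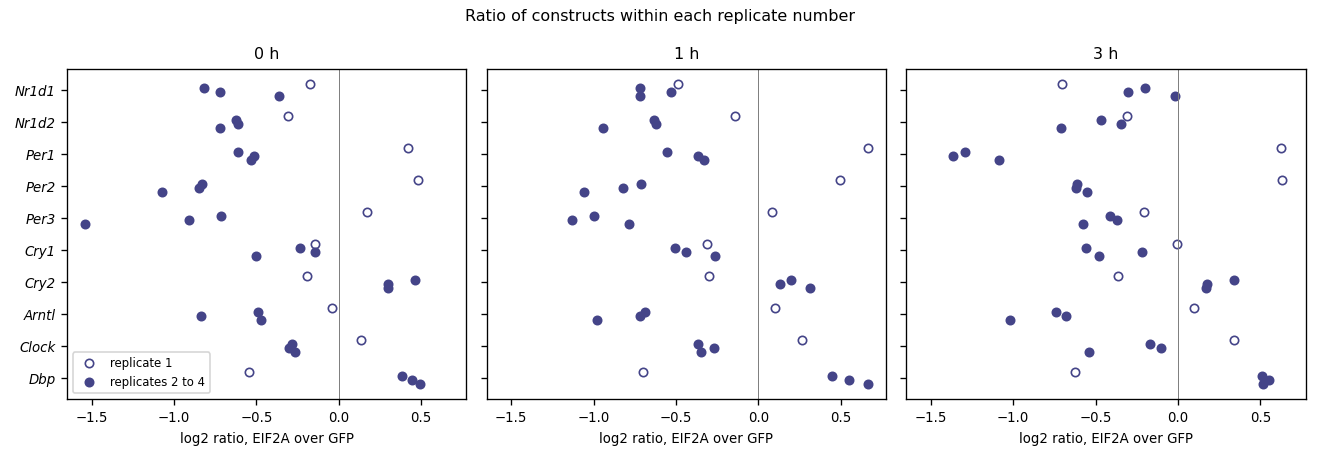
Log2 ratio of EIF2A over GFP CPM (horizontal axis) of each clock gene within each replicate number, at 0, 1 and 3 h. Filled points, replicates 2 to 4, lie on 1 side of 0 for each gene at each time, while the open points of replicate 1 lie on the other side for 6, 7 and 6 of the 10 genes at 0, 1 and 3 h.

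Genes that moved most like a member were found over 16 changes, each the log2 CPM of a 1 h or 3 h library minus the 0 h library of its construct and replicate number. The changes share 0 h libraries in pairs and hold the same time effect, so Pearson's r describes these libraries without a p. Among the 10907 genes averaging 5 CPM or more, the likest to Nr1d1 were Stard5 at 0.979, Myc at 0.972 and Zfp280d at 0.972. The likest to Arntl were Dtl at 0.977, Slc7a11 at 0.974 and Ift81 at 0.973, and to Dbp Mapk1ip1 at 0.895, Fhdc1 at 0.886 and Rgl3 at 0.881. For Per1 the first was Nr4a1 at 0.910, followed by Spire2 at 0.892 and Sgsh at 0.883. Pearson's r takes no account of size. With all 24 libraries, log2 fold changes at 1 h and 3 h against 0 h ran from -0.08 to 0.10 for Spire2. They ran from -0.14 to 0.09 for Sgsh, and neither gene was called in these contrasts. Among the members themselves, Nr1d1 ran closest to Cry2 (0.933), Arntl (0.913) and Nr1d2 (0.903), and Per1 ran against Nr1d2 (-0.704).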

How the data were processed

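The authors deposited 1 table of raw gene counts for 24 libraries of MIN6 RNA. The labels' protocols give polyA RNA and a stranded mRNA kit, and bcl2fastq, STAR and the mm10 build are listed in the submitters' processing notes. No counter, gene annotation or strand setting is named there. The table lists 24421 genes, and its 2 lines without a gene, holding 10.7 to 17.9% (no feature) and 0.518 to 0.592% (ambiguous) of each library, were left out. Total counts ran from 10.5 to 22.2 M.

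Counts were fitted with edgeR 4.0.16 in R 4.3.3 (quasi-likelihood, robust; TMM scaling; filterByExpr), with 6 group means over 24 libraries and Benjamini-Hochberg adjustment over 13761 genes at 0.05. CPM are TMM-scaled, and the scripts were tested on simulated data. DESeq2 1.42.0, other scalings, no low-count filter, a replicate block, and leaving out libraries were alternatives. With replicate 1 included, same-numbered libraries of 1 construct deviated together between times (correlations 0.510 to 0.933). Without replicate 1 the correlations were -0.0264 to 0.312, so a pairing of replicates 2 to 4 is not shown. Between constructs the correlations were -0.663 to -0.159 with replicate 1 included and -0.0176 to 0.313 without it, so a pairing is not shown there either. Libraries of the same group differed by more than sampling noise. Chi-square per degree of freedom was 1.32 to 19.1 for pairs among replicates 2 to 4 and 64.1 to 144 for pairs with replicate 1.

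The members, the wider clock list and the signal genes were chosen with earlier results of these data known. All members were named, and from the wider list, up to 4 called genes per contrast by p; a contrast with no call took the list's 2 most abundant genes. Genes named for the block fit and for replicates 2 to 4 were chosen after their values were seen. Promoters are RefSeq sequences on GRCm38.p6, and gene positions and exonic lengths are from GENCODE M21 on GRCm38. The columns number the replicates 2 to 5 where the labels use 1 to 4, and columns were matched to labels through the sample titles. One gene of the wider list is counted but not reported here by name or value.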

Additional observations from a re-analysis of the deposited data

Results flagged for a closer look

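For the 10 members, Nfil3 and Ciart, each of 72 groups of 4 libraries was screened for a library whose gap to the nearest other took more of the group's range than Dixon's critical value for 4 samples allows. Chance gives about 1 in 20, or 3.6 of 72, and 17 passed, 16 of them in replicate 1. In EIF2A cells at 0 h the high libraries were those with 93.4 CPM of Nr1d2 (the others 44.2 to 49.6), 35.5 CPM of Per1 and 35.4 CPM of Per2, and the low one had 25.7 CPM of Nfil3. In EIF2A cells at 1 h, 22.6 CPM of Per3 and 29.8 CPM of Cry1 stood high, and 61.6 CPM of Nfil3 stood low. At 3 h in EIF2A cells, 81.0 CPM of Per1 (the others 23.9 to 33.2) and 36.0 CPM of Per2 stood high, and 75.3 CPM of Cry2 (the others 95.3 to 95.9) stood low. In GFP cells at 0 h, 115 CPM of Nr1d2, 37.0 CPM of Cry1 and 40.3 CPM of Nfil3 stood high, and 116 CPM of Clock stood low. At 1 h in GFP cells, 107 CPM of Nr1d2 stood high, and 38.8 CPM of Per1 (the others 74.5 to 78.2) stood low. The exception to replicate 1 was replicate 4 of GFP cells at 1 h, with 87.2 CPM of Clock.

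The 3 h responses of the constructs differed in replicates 2 to 4 for Per1 (EIF2A minus GFP -0.68 on the log2 scale) and for Nfil3 (0.33). Per1's difference is a description, since its values were known when it was chosen.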

How the results depend on the processing

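Members called are given before wider-list genes called, and nothing is read from these counts. With the replicate block, 5 and 7 were called in EIF2A cells at 1 h, 8 and 10 at 3 h, and 7 and 12 between 3 h and 1 h; in GFP cells 5 and 7 at 1 h, 10 of the wider list at 3 h, and 8 and 10 between 3 h and 1 h; and 2 members between constructs at 1 h. The block changed no other call count by more than 1.5 times. With replicate 1 left out everywhere, EIF2A cells gave 4 and 10, 9 and 10, and 7 and 11, GFP cells 5 and 10, 10 of the wider list at 3 h, and 8 and 8, and the constructs 10 and 13 at 0 h, 10 and 14 at 1 h, 10 and 14 at 3 h, with 1 wider gene for the 1 h response and 1 and 2 for the 3 h response. Of all 13731 genes, that fit called 5762 at 1 h, 8598 at 3 h and 6740 between 3 h and 1 h in EIF2A cells. In GFP cells it called 5413, 8648 and 5798. DESeq2 called 4 members in GFP cells at 1 h, where it called 1565 of all 13761 genes. Between constructs it called 1 member at 0 h and 3 wider genes at 1 h. Library totals gave 5 wider genes in GFP cells at 3 h, 1 member in EIF2A cells at 1 h and 8 wider genes at 3 h, and moved the median of all genes by 0.16 (EIF2A) and 0.12 (GFP) at 3 h. That scaling called 4706 of all genes in GFP cells at 3 h, and 1314 at 1 h and 5148 at 3 h in EIF2A cells. No low-count filter gave 1 member in EIF2A cells at 1 h and 0 between constructs at 1 h. The causes were not tested.

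Leaving out single libraries gave ranges of 1 to 3 and 2 to 5 (EIF2A, 1 h), 4 to 6 and 3 to 6 (EIF2A, 3 h), 3 to 5 and 4 to 5 (EIF2A, 3 h against 1 h), 1 to 3 and 1 to 2 (GFP, 1 h), 5 to 6 and 3 to 4 (GFP, 3 h), 3 and 3 (GFP, 3 h against 1 h), and, between constructs, 0 to 4 and 0 to 5 at 0 h, 0 to 7 and 0 to 9 at 1 h, 0 to 2 and 0 to 6 at 3 h, and 0 for both responses. The highest counts between constructs came without EIF2A replicate 1 of that time, and EIF2A 3 h gave 5 wider genes without EIF2A 0 h replicate 1 and 6 without EIF2A 3 h replicate 1; between 3 h and 1 h, 5 members were called in EIF2A cells without EIF2A 1 h replicate 1, which also gave 5 wider genes at 1 h. One member was called in EIF2A cells at 1 h without replicate 2 or 3 at 0 h or replicate 2, 3 or 4 at 1 h, and 1 in GFP cells at 1 h without GFP 1 h replicate 2. In GFP cells at 1 h, 1 wider gene was called without replicate 1, 2 or 4 at 0 h or 2, 3 or 4 at 1 h. Between constructs at 1 h, 0 members were called without any one of replicates 2 to 4 of either construct, and 1 wider gene without GFP 1 h replicate 1. Per1 in EIF2A cells at 3 h was 0.74 with all libraries and 0.17 without EIF2A 3 h replicate 1. Over all settings, 1631 member fold changes stayed within the spread and 69 moved, and no called one changed sign. Library totals turned the sign of some uncalled ones: between 3 h and 1 h Per2 and Clock in EIF2A cells and Per3 in GFP cells, at 3 h against 0 h Per2 in EIF2A cells and Per3 in GFP cells, and between constructs at 1 h Cry2. Leaving out replicates and the replicate block also turned signs among uncalled fold changes only.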
